A study of Mus musculus with 6 samples.

Results

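The 10 genes described here build, load or switch on MHC class II, and all 10 were matched among the 32456 genes and unnamed probes tested on lung RNA arrays. They were chosen by name, as H2-Aa, H2-Ab1, H2-Eb1, Cd74, Ciita, H2-DMa, H2-DMb1, H2-DMb2, H2-Oa and H2-Ob, and were found through the RefSeq transcript that each array probe is assigned to. The arrays carried 15 probes for them, and the probe with the highest mean signal stood for each gene. Lungs came from 6 male C57BL6 mice of 10 weeks, 1 array per mouse. All 6 had gone without food for 16 h and had then received lipopolysaccharide (LPS), the endotoxin of Gram-negative bacteria, at 20 mg/kg into the peritoneum. At 3 h and 24 h after LPS, 3 mice received recombinant antithrombin at 750 IU/kg and the 3 others saline, and RNA was taken from whole lung at 30 h. Antithrombin is the plasma inhibitor of thrombin. No mouse without LPS was analysed here, so each value sets antithrombin against saline within endotoxaemia.

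MHC class II molecules are pairs of an alpha and a beta chain that show peptides from engulfed protein to CD4+ T cells. Dendritic cells, B cells and macrophages carry them, and in lung so do alveolar type 2 cells. The invariant chain Cd74 guides new molecules to endosomes, where the peptide exchange factor H2-DM loads them and H2-O restrains H2-DM. The coactivator CIITA, encoded by Ciita, switches on class II genes by docking on factors bound to the X and Y boxes of their promoters. C57BL/6 mice make I-A but no surface I-E, because their H2-Ea gene is not transcribed, so the beta chain encoded by H2-Eb1 lacks its partner.

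The X and Y boxes can be read in the promoter letters of these genes. Of the 10 genes, 7 matched an entry among RefSeq promoter windows of 300 bases (assembly GRCm38.p6). H2-Ab1 and Ciita were among those that did not. Stretches of 60 bases are shown for the 6 in which X box letters precede ATTGG, because CIITA acts through these boxes. Capitals mark ATTGG, the core of the Y box, and, where present upstream of it, ACNGATG or GCAAC, letters of the X box. In H2-Eb1 both X box letterings occur and share the letters AC.
H2-Aa: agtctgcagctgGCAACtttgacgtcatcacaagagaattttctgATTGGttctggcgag
H2-Eb1: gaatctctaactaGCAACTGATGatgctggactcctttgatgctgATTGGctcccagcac
H2-DMb1: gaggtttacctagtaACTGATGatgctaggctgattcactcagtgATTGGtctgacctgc
H2-DMb2: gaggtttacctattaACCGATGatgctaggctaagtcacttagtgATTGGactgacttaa
H2-Oa: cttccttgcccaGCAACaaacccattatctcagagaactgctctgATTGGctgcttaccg
H2-Ob: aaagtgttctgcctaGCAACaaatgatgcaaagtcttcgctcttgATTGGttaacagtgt
The H2-Aa stretch lies on the minus strand at chr17:34287857-34287916. The others lie on the plus strand, at chr17:34305763-34305822 for H2-Eb1, chr17:34153085-34153144 for H2-DMb1, chr17:34145114-34145173 for H2-DMb2, chr17:34092291-34092350 for H2-Oa and chr17:34238803-34238862 for H2-Ob. ATTGG began between 43 bases (H2-Oa) and 90 bases (H2-DMb2) before the start of the gene. Searched on both strands, ATTGG occurred in 37.4% of all 32851 promoter windows and in 7 of the 8 windows of the 7 class II genes, at least 1 for each gene. ACNGATG followed by ATTGG after 10 to 30 bases occurred in 0.158% of all windows and in those of H2-Eb1, H2-DMb1 and H2-DMb2. GCAAC followed by ATTGG after 20 to 40 bases occurred in 1.01% of all windows and in those of H2-Aa, H2-Eb1, H2-Oa and H2-Ob. The GCAAC letters and their spacing were chosen after the windows had been read.

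Signals below are log2 processed intensities less the 75th percentile of each array, so a probe at 0 equals that percentile of its array. With 3 arrays a group, precision is limited by their number. Probes are compared between mice, not with each other. Between 69.8% and 72.1% of probes were well above background on each array, and no probe was saturated. Every marker of alveolar type 2 cells on a fixed list, 10 of 10, was well above background on all 6 arrays. Saline mouse 2 stood apart from its group. Its mean Pearson r was 0.993 to the antithrombin arrays and 0.989 to saline mice 1 and 3, a description over genes that are not independent of each other. All 10 class II genes were well above background on all 6 arrays, as were 29879 of the 32426 tested genes with a value on every array.

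None of the 10 class II genes differed between antithrombin and saline mice by the test used, limma with Benjamini-Hochberg adjustment over all 32456 genes. At an adjusted p under 0.05 the count was 0 of 10 (0.00616% of all genes passed), and at an unadjusted p under 0.05 it was also 0 of 10, against 21.6% of all genes. On the probe standing for each gene, the groups overlapped in each of the 10, whereas they did not overlap in 28.9% of all genes (18.1% with antithrombin lower). The median log2 difference, antithrombin minus saline, was -0.06 over the class II genes and -0.05 over all genes tested. Of the 10, 6 had a negative difference, the I-A and I-E chains and Cd74 among them, and 4 a positive one (43.0% of all genes were positive).

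**Figure D1:**
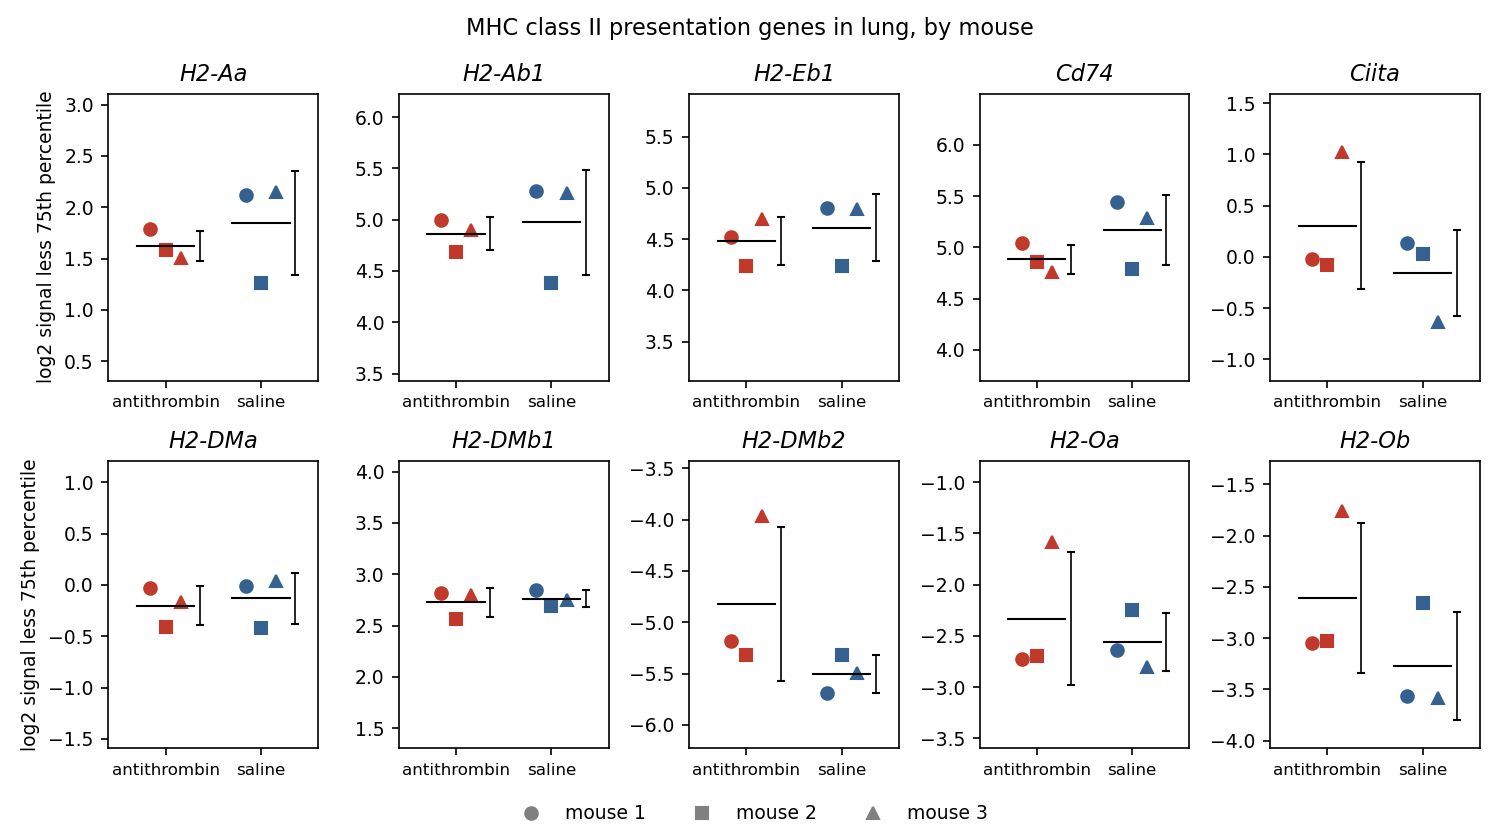
Log2 signal less the 75th percentile of the array (vertical axis, each panel spanning the same number of log2 units) for each class II gene in the antithrombin mice (left, red) and the saline mice (right, blue). Horizontal lines are group means, bars beside them are the SD (n = 3 each), and the symbol gives the mouse number. Saline mouse 2 lies low for H2-Aa, H2-Ab1, H2-Eb1 and Cd74, and antithrombin mouse 3 lies high for Ciita, H2-DMb2, H2-Oa and H2-Ob.

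H2-Aa, the alpha chain of I-A, had log2 signals of 1.79, 1.58 and 1.51 in antithrombin mice 1, 2 and 3, against 2.12, 1.27 and 2.15 in saline mice 1, 2 and 3. The antithrombin values lay inside the range set by the saline mice, where mice 1 and 3 were high and mouse 2 was low. The log2 difference was -0.22 (SE 0.25, 95% interval -0.82 to 0.38, limma adjusted p = 0.619). H2-Ab1, its beta chain partner, had signals of 5.0, 4.68 and 4.90 in antithrombin mice, against 5.28, 4.38 and 5.26 in saline mice. The order of the mice within the saline group was again 2 well below 1 and 3. Its log2 difference was -0.11 (SE 0.26, adjusted p = 0.814), and its 3 other probes gave -0.16, -0.11 and -0.15. All 4 H2-Ab1 probes had the same sign.

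H2-Eb1, the beta chain without a partner in this strain, had signals of 4.52, 4.23 and 4.70 in antithrombin mice, against 4.81, 4.24 and 4.80 in saline mice. Antithrombin mouse 2 and saline mouse 2 were the lowest of their groups and nearly equal. The log2 difference was -0.13 (SE 0.20, 95% interval -0.61 to 0.35, adjusted p = 0.726). Cd74, the invariant chain, had signals of 5.04, 4.86 and 4.76 in antithrombin mice, against 5.44, 4.79 and 5.29 in saline mice. Saline mice 1 and 3 lay above all 3 antithrombin mice, and saline mouse 2 lay among them. Cd74 averaged 4.88 ± 0.14 (SD, n = 3) after antithrombin and 5.17 ± 0.34 (SD, n = 3) after saline, with a log2 difference of -0.29 (SE 0.19, 95% interval -0.74 to 0.17, adjusted p = 0.397).

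The size of the difference for these 4 transcripts leaned on single mice, and saline mouse 2 stood out. Its signal was below the mean of saline mice 1 and 3 by a log2 of 0.87 for H2-Aa, 0.89 for H2-Ab1, 0.57 for H2-Eb1 and 0.58 for Cd74. Without that mouse the log2 difference was -0.51 for H2-Aa (adjusted p = 0.0578), -0.41 for H2-Ab1 (0.0999), -0.32 for H2-Eb1 (0.236) and -0.48 for Cd74 (0.0706). Leaving out saline mouse 1 or 3 moved the values the other way. Without saline mouse 1 the difference was -0.083 for H2-Aa, -0.032 for H2-Eb1 and -0.15 for Cd74, and without saline mouse 3 it was -0.067, -0.035 and -0.23. H2-Ab1 stood at 0.041 without saline mouse 1, 0.031 without saline mouse 3, -0.18 without antithrombin mouse 1 and -0.023 without antithrombin mouse 2. H2-Eb1 stood at -0.0022 without antithrombin mouse 2 and -0.23 without antithrombin mouse 3. Without saline mouse 2, none of the 10 class II genes passed the adjusted threshold, while 11.0% of all genes did (4.87% higher and 6.13% lower). Without it, H2-Aa, H2-Ab1 and Cd74 were lower at an unadjusted p under 0.05, which is 3 of 10, against 32.0% of all genes. Saline mouse 2 is the saline mouse closest to the antithrombin arrays. Saline mouse 2 was the lowest saline mouse in 6 of the 10 class II genes and in 39.2% of all genes. In whole lung, fewer cells of a type and less RNA per cell cannot be told apart.

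**Figure D2:**
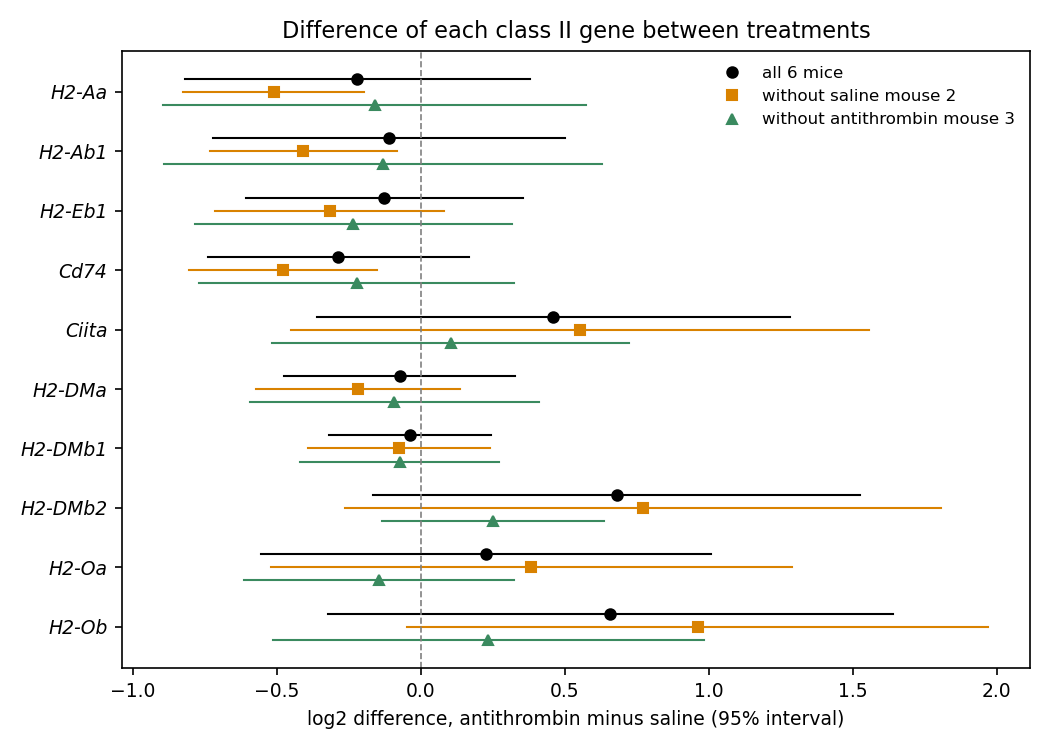
Log2 difference, antithrombin minus saline (horizontal axis), with its 95% interval from limma for each class II gene, over all 6 mice (black circles), without saline mouse 2 (orange squares) and without antithrombin mouse 3 (green triangles). With all 6 mice every interval includes 0, and the widest are those of H2-Ob, H2-DMb2, Ciita and H2-Oa.

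Ciita, which encodes the coactivator CIITA, had signals of -0.02, -0.08 and 1.02 in antithrombin mice, against 0.14, 0.03 and -0.63 in saline mice. Antithrombin mouse 3 was the highest of the 6 and saline mouse 3 the lowest, while the remaining 4 mice lay close together. The log2 difference was 0.46 (SE 0.34, 95% interval -0.36 to 1.28, adjusted p = 0.449), and the other Ciita probe gave 0.48. That dimmer probe had signals of -3.97, -4.29 and -3.52 in antithrombin mice, against -4.32, -4.43 and -4.46 in saline mice, so on it the groups did not overlap. Without antithrombin mouse 3 the difference on the brighter probe was 0.10.

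The peptide exchange factor H2-DM is a pair of H2-DMa with H2-DMb1 or H2-DMb2. H2-DMa had signals of -0.03, -0.41 and -0.17 in antithrombin mice, against -0.01, -0.42 and 0.04 in saline mice. The 2 groups covered almost the same range, with a log2 difference of -0.07 (SE 0.17, 95% interval -0.47 to 0.33, adjusted p = 0.816). H2-DMb1 had signals of 2.82, 2.56 and 2.80 in antithrombin mice, against 2.85, 2.69 and 2.75 in saline mice. It had the smallest spread of the 10 genes among saline mice (SD 0.08, n = 3) and the narrowest interval, -0.32 to 0.24 around a log2 difference of -0.04 (adjusted p = 0.866).

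H2-DMb2, the other beta chain of H2-DM, behaved differently across mice from H2-DMb1. Its signals were -5.18, -5.32 and -3.96 in antithrombin mice, against -5.69, -5.32 and -5.50 in saline mice. Antithrombin mouse 3 alone stood clear of the rest. The log2 difference was 0.68 (SE 0.36, 95% interval -0.17 to 1.53, adjusted p = 0.302). The probe was dim, about 1 log2 unit above the lowest well detected signal (-6.51 to -6.15 over the 6 arrays). With another background correction, normexp, its log2 difference was 0.14. Without antithrombin mouse 3 it was 0.25. H2-DMb1 and H2-DMb2 are close relatives, and whether each probe reads 1 of them alone was not analysed here.

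H2-O is the brake on H2-DM and is known above all from B cells. H2-Oa, its alpha chain, had signals of -2.72, -2.69 and -1.59 in antithrombin mice, against -2.63, -2.25 and -2.80 in saline mice. Antithrombin mice 1 and 2 lay within the saline range and mouse 3 above it. The log2 difference was 0.23 (SE 0.33, adjusted p = 0.699) and became -0.15 without antithrombin mouse 3. H2-Ob, the beta chain, had signals of -3.04, -3.02 and -1.76 in antithrombin mice, against -3.56, -2.66 and -3.58 in saline mice. Antithrombin mouse 3 was again the highest, and saline mouse 2 came next. The log2 difference of H2-Ob was 0.66 (SE 0.41, 95% interval -0.32 to 1.64, adjusted p = 0.373), and it was 0.24 without antithrombin mouse 3 and 0.39 with normexp. A dimmer H2-Ob probe, well above background on 2 of 3 antithrombin arrays and 1 of 3 saline arrays, gave a difference of 0.0046.

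Some of the 10 genes thus formed sets that differed in their pattern across the 6 mice, named here after their values were seen. H2-DMa and H2-DMb1 were placed in neither set. Over the 6 arrays the Pearson r between pairs of H2-Aa, H2-Ab1, H2-Eb1 and Cd74 ran from 0.70 to 0.95, with a median of 0.88. Between pairs of Ciita, H2-DMb2, H2-Oa and H2-Ob it ran from 0.84 to 0.93, with a median of 0.89. In that set antithrombin mouse 3 lay above the mean of mice 1 and 2 of its group by 1.07 to 1.29 log2. Those r values thus lean on 1 mouse, and r without it was not calculated. Between a gene of one set and a gene of the other, r ran from -0.83 to 0.07, with a median of -0.48. H2-DMa had r of 0.77 to 0.94 with the H2-Aa set and -0.42 to -0.12 with the Ciita set. For H2-DMb1 these were 0.49 to 0.79 and -0.04 to 0.26, so the split was not clean over all 10 genes. These are descriptions over 6 mice on 1 slide, all given LPS, and they run across both treatment groups. The H2-DMb1 and H2-DMb2 promoter stretches shown above both match ACNGATG, with a different base at N. The distance from ACNGATG to ATTGG is the same in both. Whether promoter letters bear on the patterns across mice was not tested. The coactivator gene Ciita did not follow H2-Aa, H2-Ab1, H2-Eb1 and Cd74 across mice.

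Markers of B cells shared with the Ciita set the high value of antithrombin mouse 3. The other mice did not all follow that set. For Cd79a, Cd79b and Cd22, antithrombin mice 1 and 2 lay below every saline mouse. Antithrombin mouse 3 was the highest of the 6 mice for 10 of 10 tested B cell markers, for 4 of 10 class II genes and for 20.5% of all genes. Over the 10 B cell markers the median log2 difference was 0.32, and 0.035 without antithrombin mouse 3. Of the 10, 8 were positive (43.0% of all genes were) and 0 passed the adjusted threshold. At an unadjusted p under 0.05, 1 was higher (8.73% of all genes were), Fcer2a at 1.02 (limma adjusted p = 0.191). As a mean log2 deviation from the saline mean, the B cell list stood at 0.04, -0.07 and 0.98 in antithrombin mice 1, 2 and 3, against 0.03, 0.18 and -0.21 in saline mice 1, 2 and 3. The log2 of its summed signal was 3.53 in antithrombin mouse 3 and 2.60 in antithrombin mouse 1, and ran from 2.67 to 2.95 in saline mice. All 10 were well above background on all 6 arrays, as were most genes tested. The defining genes Ms4a1, Cd79a and Pax5 were among the 10, and Blk was not tested. Ms4a1 was singled out after its values were seen. Ms4a1, which encodes CD20, deviated by -0.05, -0.11 and 1.77 in antithrombin mice, against 0.15, 0.62 and -0.78 in saline mice. Saline mouse 2, the next highest for H2-Oa and H2-Ob, was also the next highest for Ms4a1. The part of B cells in the class II values was not tested.

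**Figure D3:**
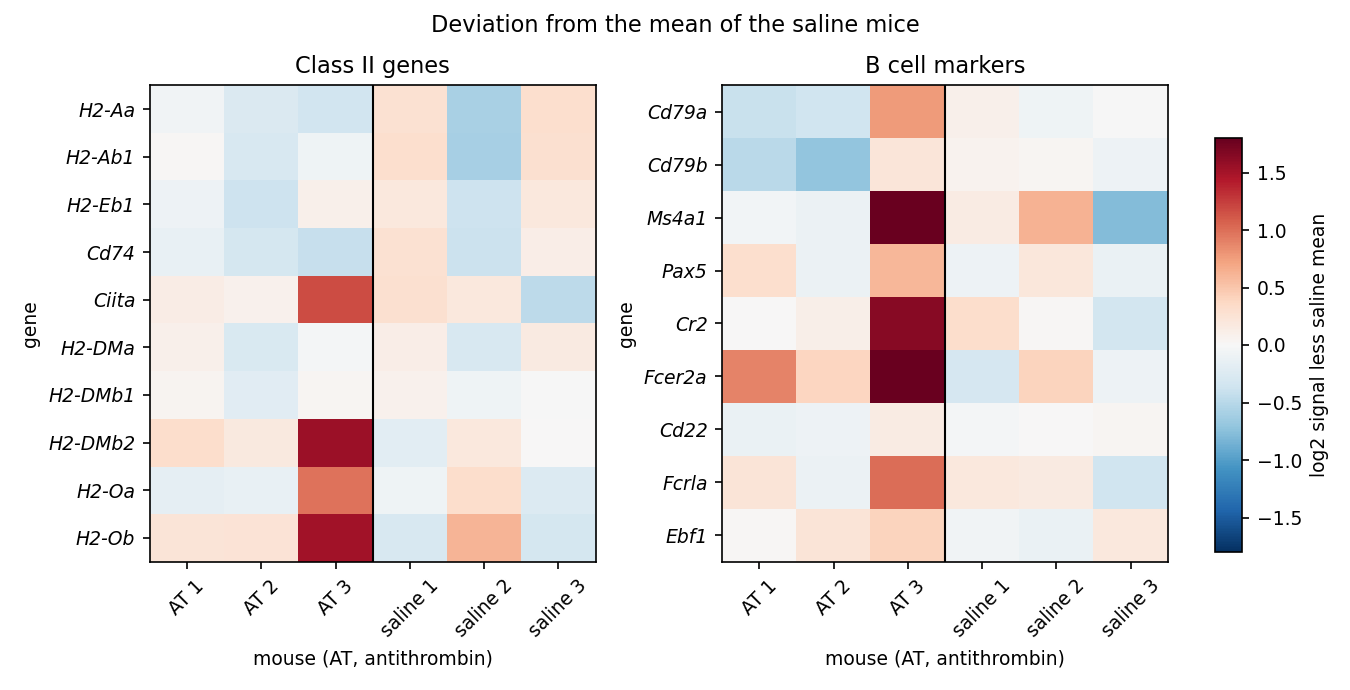
Log2 signal less the mean of the saline mice (colour) for the class II genes (left) and 9 of the 10 tested B cell markers (right), one column per mouse, antithrombin mice (AT) left of the line and saline mice right of it. Ciita, H2-DMb2, H2-Oa and H2-Ob and all 9 B cell markers shown are highest in antithrombin mouse 3, while H2-Aa, H2-Ab1, H2-Eb1 and Cd74 are not.

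Markers of other class II bearing cells were set beside the genes in the same way. Of 14 dendritic cell markers 12 were tested, with 0 past the adjusted threshold and 0 at an unadjusted p under 0.05, and their median log2 difference was 0.02. Of the 12, 6 were positive and 6 negative (43.0% of all genes were positive). The 3 with the smallest p were all positive, with the groups overlapping in each. Wdfy4, which serves cross-presentation, had a log2 difference of 0.45, Naaa 0.52 and the integrin Itgax 0.51 (adjusted p of 0.232, 0.234 and 0.244). Among the negative ones, Mgl2 stood at -0.23 and Ccr7 at -0.35. The dendritic list stood at 0.12, 0.02 and 0.16 in antithrombin mice, against 0.00, 0.04 and -0.05 in saline mice. Alveolar macrophage markers had a median of -0.05 over 9 genes and alveolar type 2 markers -0.08 over 10, with 0 past the adjusted threshold in each. Interstitial macrophage markers had a median of 0.10 over 9 genes. Among them Cx3cr1, the fractalkine receptor, had the largest difference of the list (log2 difference 1.6, adjusted p = 0.155), with no overlap. Lyve1 had signals of 5.11, 4.83 and 4.70 in antithrombin mice, against 6.11, 5.09 and 6.27 in saline mice (log2 difference -0.95, adjusted p = 0.179). As for H2-Aa, saline mice 1 and 3 lay above all other mice. Saline mouse 2 lay among the antithrombin mice for Lyve1, and below them for H2-Aa. Lyve1 also marks lymphatic vessels. Monocyte and neutrophil markers had medians of 0.25 over 8 genes and 0.40 over 10. Of the neutrophil markers, 4 of 10 were higher at an unadjusted p under 0.05, against 8.73% of all genes. These 4 were also those whose groups did not overlap, namely the granule genes Camp, Mmp8 and Mmp9 and the chemokine receptor Cxcr2 (adjusted p of 0.156 to 0.179). T cell markers had a median of -0.09 over 7. None of the tested genes on these lists passed the adjusted threshold, and their part in the class II values was not tested.

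The genes that act around class II were taken from lists of the pathway, 56 genes of which 55 were tested. None passed the adjusted threshold (limma). An unadjusted p under 0.05 was reached by 8, 4 with antithrombin higher (8.73% of all genes) and 4 with it lower (12.9%). The groups did not overlap in 12 of 55, 6 in each direction, against 28.9% of all genes. Their median log2 difference was -0.0027.

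Among the factors that bind the X and Y boxes, Rfxank, a subunit of the RFX complex, had signals of -0.58, -0.51 and -0.30 in antithrombin mice, against -1.94, -0.97 and -1.94 in saline mice. Each antithrombin mouse lay above each saline mouse, and the log2 difference was 1.15 (SE 0.27, adjusted p = 0.155). Nfya, a subunit of the Y box factor NF-Y, had signals of -0.11, -0.13 and -0.08 in antithrombin mice, against -0.72, -0.32 and -1.19 in saline mice (log2 difference 0.64, adjusted p = 0.182). Nfyc, another subunit, also had no overlap, with a smaller log2 difference of 0.17 and with 0.23 and 0.45 from its other probes. Rfx5, another RFX subunit, stood at -0.05, and its groups overlapped. Of the 12 listed regulators, an unadjusted p under 0.05 was reached by 2, both higher (8.73% of all genes were higher at that p).

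Interferon gamma drives Ciita outside professional antigen-presenting cells. Ifng was dim, with signals of -4.19, -3.85 and -2.49 in antithrombin mice, against -3.28, -3.34 and -4.16 in saline mice, and its log2 difference was 0.08 (SE 0.47, adjusted p = 0.927). Like Ciita it was highest in antithrombin mouse 3. Jak2, the kinase of its receptor, had a log2 difference of -0.30 (adjusted p = 0.182) and the receptor chain Ifngr1 -0.27 (adjusted p = 0.193), each without overlap. The other Jak2 probe gave -0.07.

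Endosomal processing genes had a median log2 difference of -0.15 over 13 tested genes, 11 of them negative and 2 positive (43.0% of all genes were positive). At an unadjusted p under 0.05, 1 was lower (12.9% of all genes were). That gene was Ctse, an aspartic protease (-0.76, SE 0.26, adjusted p = 0.184), whose groups overlapped. Ctss, which trims the invariant chain, stood at -0.26 (adjusted p = 0.441) and the thiol reductase Ifi30 at 0.21 (0.473). Of 9 genes of costimulation and class II ligands, 6 were positive (43.0% of all genes), with a median of 0.07. The costimulator Cd86 had a log2 difference of 0.16 (adjusted p = 0.457). Lag3, a T cell receptor for class II, had signals of -4.00, -3.95 and -3.95 in antithrombin mice, against -3.40, -3.51 and -3.57 in saline mice. Lag3 was lower in each antithrombin mouse, with a log2 difference of -0.47 (SE 0.10, adjusted p = 0.151). A second probe, well above background on 3 of 6 arrays, gave -0.77, but lay too close to background for that size to be read. The class II beta gene H2-Eb2, close to H2-Eb1 on the chromosome, was at 0.14 (adjusted p = 0.723), and H2-Ea was not tested.

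Class I presentation gives a comparison within the same lungs. Nlrc5, the relative of CIITA that switches on class I genes, had signals of 1.86, 1.82 and 2.10 in antithrombin mice, against 1.2, 1.24 and 0.96 in saline mice. The groups were well apart at a log2 difference of 0.79 (SE 0.13, adjusted p = 0.151), but a dimmer Nlrc5 probe gave -0.33, so the sign rests on the probe used. The chaperone Calr had a log2 difference of 0.59 (adjusted p = 0.156). The class I heavy chain H2-K1 stood at -0.0030 (SE 0.11), with a 95% interval of -0.27 to 0.26, and the light chain B2m at 0.02 (SE 0.13). The median over the 13 class I genes was -0.0030. Whether class I and class II genes differed from each other in their response was not tested.

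**Figure D4:**
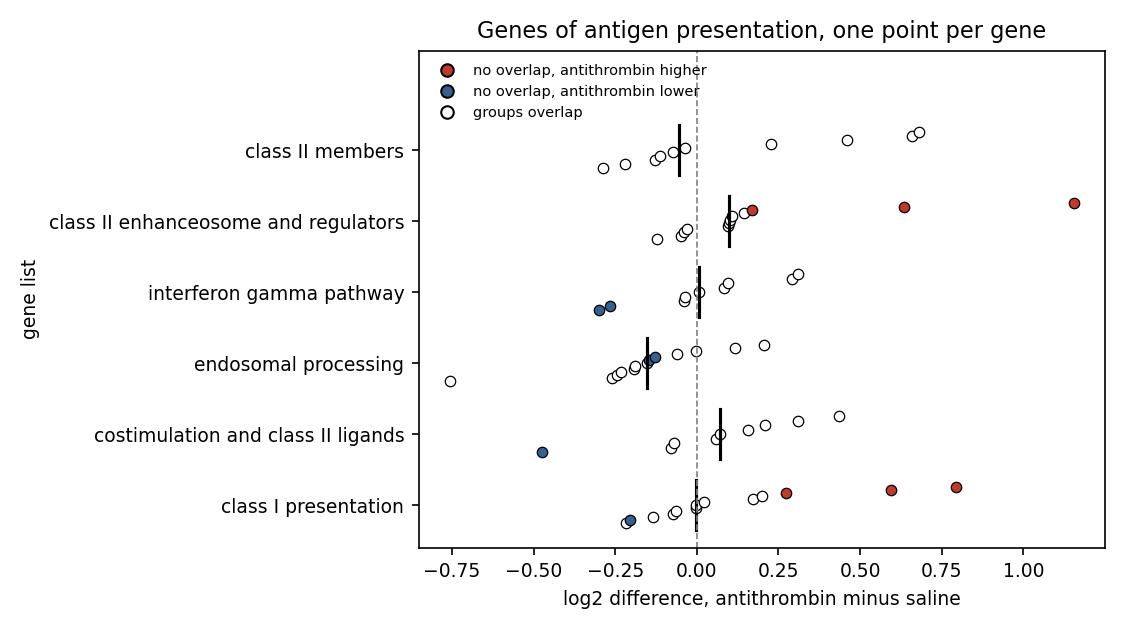
Log2 difference, antithrombin minus saline (horizontal axis), of each tested gene of the class II set and of 5 lists around it, one point per gene, with a black bar at the median of the list. Filled points are genes whose groups did not overlap, red with antithrombin higher and blue with antithrombin lower. No class II gene is filled, and none of the plotted genes passed the adjusted threshold.

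Without saline mouse 2, 7 of the 55 pathway genes passed the adjusted threshold, 4 higher and 3 lower (11.0% of all genes passed). Rfxank (1.48), Nlrc5 (0.85), Nfya (0.84) and Calr (0.74) were higher. Ctse (-1.04), Lag3 (-0.48) and the peptide transporter gene Tap1 (-0.47) were lower, Tap1 being named for this outcome. As above, this mouse was the saline mouse nearest to the antithrombin mice, so these counts are no separate support.

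The genes whose signals followed H2-Aa, H2-Ab1, H2-Eb1 and Cd74 most closely over the 6 arrays were sought among 16585 named genes well above background throughout. By mean Pearson r with those 4, Adam21 (0.940), Marcks (0.934), Fam83g (0.933), Btg1c (0.928) and Hspa4l (0.927) led, followed by Fam43a, Scpep1, Zfp974, Fam122b and 4931429P17Rik (0.923 to 0.918). A mean r over 0.9 was reached by 36 genes. The closest was the dim Adam21, with signals of -4.57, -4.69 and -4.64 in antithrombin mice, against -4.37, -4.84 and -4.40 in saline mice. Marcks, a membrane-bound substrate of protein kinase C, had 5.06, 5.01 and 5.06 in antithrombin mice, against 5.23, 4.92 and 5.21 in saline mice. Both shared the low value of saline mouse 2 with H2-Aa, H2-Ab1, H2-Eb1 and Cd74. They were chosen for following that pattern, so the shared low value is no separate finding.

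The spread between mice set the limit of these comparisons. The median SD of the class II genes was 0.21 among antithrombin mice and 0.34 among saline mice (n = 3 each), against 0.15 and 0.19 over all genes. For Ciita, H2-DMb2, H2-Oa and H2-Ob the SD among antithrombin mice was 0.62, 0.75, 0.65 and 0.73. For H2-DMb1 and H2-DMa the 95% intervals leave differences of up to 0.32 and 0.47 log2 in size possible, and for H2-Ob up to 1.64.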

How the data were processed

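Whole-lung RNA of 6 mice was measured on 1-colour Agilent arrays, and sample titles gave the group and number of each mouse. The deposited scanner files give an intensity per spot, made with Agilent Feature Extraction 10.7.3.1 per the file headers, while the submitters' processing notes name version 9.1. The processed signal is background-subtracted and not scaled between arrays, per the file headers. The deposited value table holds log2 values, which matched the scanner files within 0.01 for 100% of probes once each probe was centred and each array shifted. How its arrays were scaled is unknown, its column medians ran from -0.0369 to 0.0763, and it was used as an alternative.

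Control and outlier spots were left out and spots of a probe averaged as log2. Of 56605 probes 32994 were named through RefSeq transcripts of GRCm38.p6, and 23611 stayed without a name. Probe coordinates are left out, because the array was designed on another build. The brightest probe stood for a gene, and testing required it to be well above background on 3 or more arrays. A gene whose spots were outliers on an array was fitted without it, which touched no class II gene. The test was the two-sided moderated test of limma 3.58.1 (lmFit, eBayes; R 4.3.3), 3 against 3 mice, with Benjamini-Hochberg adjustment over 32456 genes, of which 17516 had symbols. In simulated data of those genes, 44 of 100 genes changed 2-fold and 86 of 100 changed 4-fold were recovered, with 6 false calls. These rates were not measured for the class II genes, whose median SD was above that of all genes in both groups.

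The class II genes and all lists were chosen with earlier results of these data known. The rule for named genes took all 10 class II genes, up to 4 genes of each pathway list and 3 of each marker list by smallest p, 8 fixed genes, and the 10 closest in pattern. Lists around class II were named by function, and those of adipocytes, cardiac muscle, alveolar type 1 cells and endothelium had medians of 0.43, 0.73, -0.35 and -0.14 with 0 genes past the adjusted threshold. Normexp used the median pixel and background signals with an offset of 50. Alternatives were background correction, scaling, filters, probe choice, the value table, variance model, array weights, blocks for mouse number or array row, and leaving out each mouse. The 6 arrays share 1 slide and 1 scan date. Results for some listed genes are not reported here. Figures were drawn with matplotlib 3.10.9.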

Additional observations from a re-analysis of the deposited data

How the results depend on the processing

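In none of the 17 alternatives did a class II gene pass the adjusted threshold, and the lowest adjusted p in the 170 values was 0.0578, for H2-Aa without saline mouse 2. Of the 170, 8 had the opposite sign of the value with all 6 mice, all in genes whose interval spans 0. Under quantile normalisation the log2 difference of H2-DMb1 was 0.0026. Leaving out each mouse in turn gave -0.51 to -0.067 for H2-Aa, -0.32 to -0.0022 for H2-Eb1, -0.48 to -0.15 for Cd74, -0.41 to 0.041 for H2-Ab1, -0.22 to 0.031 for H2-DMa, -0.083 to 0.044 for H2-DMb1 and -0.15 to 0.42 for H2-Oa. The median over the class II genes ran from -0.15 to 0.037, and the number of them at an unadjusted p under 0.05 from 0 to 3. That number was 1 with array weights (Cd74, -0.38) and 1 without antithrombin mouse 2 (H2-DMb2, 0.93), an outcome added after the data were seen. Genes past the adjusted threshold over the whole table numbered 2, 1 with normexp, quantile normalisation, median scaling, no filter, detection on all arrays, a trended and robust variance or the array row as a block, and between 0 and 3538 with 1 mouse left out, the highest without saline mouse 2. The cause of these shifts was not tested.

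With the mouse number as a replicate block, 0 genes of the whole table and 0 class II genes passed. Same-numbered mice correlated at -0.01, -0.16 and -0.28 in their deviations from the group means, so the numbers were not taken to pair them. Signals of H2-DMb2 and the second H2-Ob probe lie near background, which limits how far the size of their differences can be read.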
